A study of Mus musculus with 11 samples.

Results

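Of the 11 libraries of poly(A) RNA from the mouse nucleus accumbens shell, 6 were compared here, each from 1 animal. The libraries were chosen by Foxj1, a measured value: NSZR1, NSZR2 and NSZR3 (animals m115, m49 and m47) held at least 8 CPM (counts per 1000000 counted reads) of Foxj1 and are called ependyma-rich, while NSZR5, NSZR6 and NSZR7 (animals m74, m73 and m101) held less and are called ependyma-poor. The other 5 libraries, NSZR9, NSZR10, NSZR12, NSZR13 and NSZR14, were also below 8 CPM and served as libraries outside the choice. The choice thus had a second part, the library code: the 6 libraries compared have the codes 1 to 7 and the 5 outside have the codes 9 to 14, and what the codes stand for is not given in the labels. Any difference between the 6 and the 5 cannot be told apart from the code. The labels give every animal the same strain, a mixed CBA/C57BL6J/129svEmx background, and the same age of 8 weeks. They list no treatment and no genotype for any of the 11 libraries. The study asked how transcription changes when Rarb signalling is decreased in mice with a mutation that causes Huntington disease, and the R6/1 transgene and Rarb genotypes are named only for a sample that failed quality control. Whether genotype differs between the ependyma-rich and ependyma-poor libraries therefore cannot be told from the labels. Punches were taken from frozen sections 300 µm thick, and each stranded TruSeq library was made from 200 ng of total RNA with 12 PCR cycles.

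The lateral ventricle lies beside the medial part of the striatum, and its wall has several cell layers. Ependymal cells line the ventricle and move cerebrospinal fluid with motile cilia, whose assembly is switched on by the transcription factor Foxj1. Below them, the subventricular zone holds neural stem cells, dividing progenitors and Dcx-positive neuroblasts that migrate to the olfactory bulb. The core of a motile cilium, the axoneme, is built of microtubule doublets with dynein motors, radial spokes, nexin links and proteins inside the tubules. In bulk tissue, more cells of a type and more RNA per cell cannot be told apart.

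Since a measured value chose the sides, everything that follows on ependyma-rich against ependyma-poor libraries is a description of these 6 libraries, with no test. A gene entered when it reached 1 CPM in at least 3 of the 6, which 14842 genes did. Of these, 63 passed only through the ependyma-rich libraries and 24 only through the ependyma-poor ones, and so had to differ between the sides. A gene was called separated when its lowest value on 1 side was at least 1.5 times the highest on the other, after adding 0.5 CPM to each value. Separated genes numbered 77 higher in the ependyma-rich libraries, 0.519% of the genes tested, and 8 lower, 0.0539%. Without a minimum fold, 1293 genes (8.71%) lay higher in all 3 ependyma-rich libraries with no overlap and 1106 (7.45%) lay lower. The counts depend on single libraries: without NSZR2, 170 genes were separated higher, without NSZR5 137 and without NSZR6 126, and lower genes ran from 14 without NSZR7 to 56 without NSZR6. Against all 8 libraries below 8 CPM of Foxj1, 5 genes were separated higher and 1 lower. Library totals of the 11 ran from 24840981 to 48825783 counts, so 3 counts were worth 0.0619 to 0.133 CPM.

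Sequences upstream of the separated genes are shown first, because promoter letters were no part of the choice of libraries. RFX factors, which act with Foxj1 on cilia genes, bind an X-box whose conserved core is often written GTTGCC. Among the 10 separated cilia genes described below, 9 had an entry in the RefSeq promoter table (GRCm38.p6, 250 bases before to 50 after each start), and those of Ccdc153, Lrrc23, Iqca and Dynlrb2 held these letters on either strand. The stretch upstream of the start that holds the match is printed for the 3 of these genes whose stretch lies outside every annotated exon of the gene, in gene direction, with the match in capitals. Ccdc153 is at chr9:44240468-44240587 (plus strand), Lrrc23 at chr6:124779728-124779847 (minus strand) and Iqca at chr1:90153474-90153593 (minus strand).
Ccdc153: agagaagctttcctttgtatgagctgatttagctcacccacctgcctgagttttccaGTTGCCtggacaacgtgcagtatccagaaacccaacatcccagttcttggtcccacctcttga
Lrrc23: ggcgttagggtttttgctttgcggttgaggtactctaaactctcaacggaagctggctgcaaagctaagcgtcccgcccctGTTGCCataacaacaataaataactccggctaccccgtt
Iqca: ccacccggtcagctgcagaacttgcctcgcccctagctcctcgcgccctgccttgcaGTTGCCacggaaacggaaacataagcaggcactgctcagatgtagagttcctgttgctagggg
The first base of the match nearest the start lay 152 bases before the start in Ccdc153, 39 in Lrrc23, 100 in Iqca and 51 in Dynlrb2. No match was found in the windows of Dnali1, Ak7, Fam216b, Drc7 and Cfap126, which says only that these letters are not there. Over the whole list of cilia genes, 42 of the 90 with a promoter entry held GTTGCC or GGCAAC (46.7%), against 3821 of all 27025 genes in the table (14.1%), 4 of 33 genes of dividing cells (12.1%) and 3 of 15 neuroblast genes.

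Genes of mitosis often carry another element near the start, the cell cycle genes homology region (CHR), written TTTGAA, which is bound by the DREAM and MuvB complexes. The upstream stretches of Top2a at chr11:99024190-99024309 (minus strand) and Mki67 at chr7:135716415-135716534 (minus strand), separated genes of dividing cells described below, are printed in the same way, to show where these letters stand, with TTTGAA or its reverse complement in capitals.
Top2a: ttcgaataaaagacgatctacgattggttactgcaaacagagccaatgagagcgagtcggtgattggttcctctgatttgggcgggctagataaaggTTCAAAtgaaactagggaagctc
Mki67: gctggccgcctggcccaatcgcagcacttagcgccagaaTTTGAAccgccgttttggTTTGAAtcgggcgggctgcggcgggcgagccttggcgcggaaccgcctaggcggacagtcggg
The first base of the match nearest the start lay 23 bases before it in Top2a, 98 in Mki67 and 15 in Cdk1, whose stretch is not printed. Of the other separated genes of dividing cells with an entry, Prc1 had a match before 1 of its starts, Rrm2 and Mcm3 had no match, and Cenpf and Spc25 had none before the start. Of the 33 genes of dividing cells with a promoter entry, 20 held TTTGAA or TTCAAA (60.6%), against 5466 of the 27025 genes (20.2%), 12 of the 90 cilia genes (13.3%) and 4 of the 15 neuroblast genes (26.7%). CCAAT or ATTGG, the letters bound by the factor NF-Y, stood in 27 of the 33 (81.8%), in 10 of the 15 neuroblast promoters (66.7%), in 38 of the 90 cilia promoters (42.2%) and in 11096 of the 27025 (41.1%). GTTGCC thus stood in a larger share of the cilia windows and TTTGAA in a larger share of the dividing cell windows, with no test of the difference. A match of a few letters is no binding site, and no value of this study bears on binding.

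Foxj1, the gene the choice rests on (chr11:116330704-116335399, minus strand), stood at 16.7 CPM in NSZR1, 8.08 in NSZR2 and 14.4 in NSZR3. It stood at 2.42 in NSZR5, 2.27 in NSZR6 and 2.76 in NSZR7. NSZR2 lay just inside the threshold, and the nearest library below it was NSZR14, outside the choice, at 6.69 CPM from 305 counts. The 5 libraries outside the choice filled the space between the sides, from 3.15 CPM in NSZR9 to 6.69 in NSZR14, so the threshold did not fall in a wide empty gap. Per kilobase of exon, the median of Foxj1 was 5.49 CPM in the ependyma-rich libraries and 0.924 in the ependyma-poor ones.

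The other markers of motile ciliated ependyma followed the same division. Ccdc153 (chr9:44240676-44247306, plus strand), which encodes a coiled-coil protein of the axoneme, stood at 7.58, 2.95 and 4.84 CPM in NSZR1, NSZR2 and NSZR3 and at 0.0245, 0.0473 and 0.207 in NSZR5, NSZR6 and NSZR7. The ependyma-poor values are near or under the worth of 3 counts, so few reads of the gene were counted there. Dnali1 (chr4:125055338-125065703, minus strand), an inner-arm dynein light intermediate chain, stood at 3.84, 1.26 and 3.59 CPM against 0.22, 0.236 and 0.379. In the libraries outside the choice, Ccdc153 was highest in NSZR14 at 2.35 CPM and next in NSZR10 at 1.36, and Dnali1 was at 1.12 in NSZR14 and 1.15 in NSZR10.

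**Figure D1:**
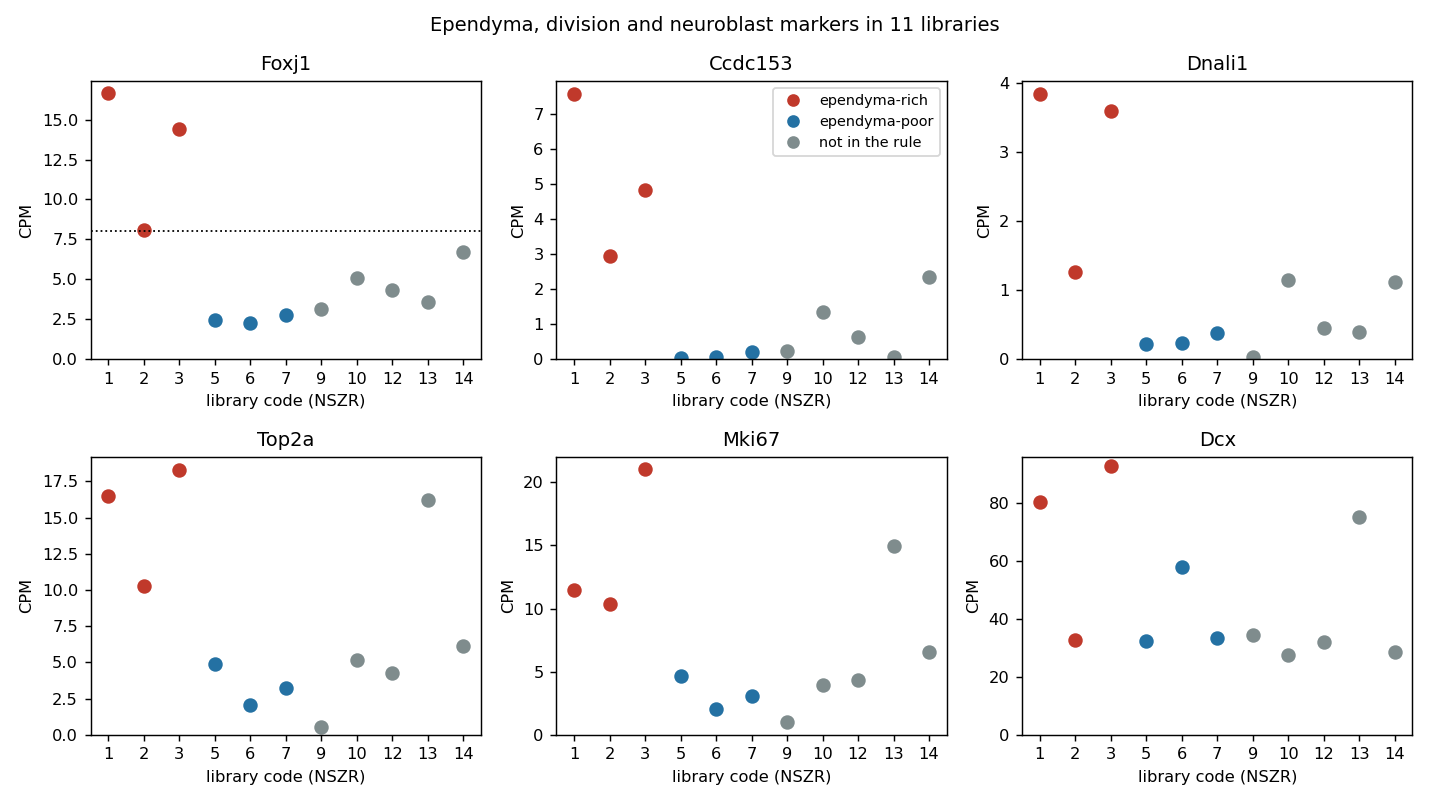
CPM of Foxj1, Ccdc153, Dnali1, Top2a, Mki67 and Dcx (vertical axes, each from 0) in the 11 libraries by code (horizontal axes), 1 point a library, coloured by set; the dotted line in the Foxj1 panel is the threshold of 8 CPM. Foxj1, Ccdc153 and Dnali1 are high in NSZR1 and NSZR3, Top2a and Mki67 are also high in NSZR13 (16.2 and 15 CPM), and Dcx in NSZR2 (32.8 CPM) lies among the ependyma-poor values.

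The list of motile cilia genes holds 110 genes in 5 groups, of which 74 passed the filter, and 10 of these passed only because of the ependyma-rich libraries and so had to differ. Of the 74, 30 lay higher in the ependyma-rich libraries without overlap and 0 lay lower, and 10 were separated by the fold of 1.5, or 21 without NSZR2. Over all genes tested, 8.71% lay higher without overlap, 7.45% lay lower and 0.519% were separated higher. The median over the 74 of the difference of side medians was 0.56 on the log2(CPM + 0.5) scale, beside 0.01 over all genes tested, with 65 above 0 and 9 below. Counted without a filter, 49 of the 109 cilia genes with any count lay higher without overlap and 0 lower. The choice of libraries by a cilia gene fixes this direction, so nothing is read from it.

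By role, the regulators of cilia formation were few past the filter, 4 of 12. Rfx2, an RFX factor of ciliated cells, stood at 3.67, 2.70 and 4.16 CPM in the ependyma-rich libraries and at 2.13, 2.27 and 1.62 in the ependyma-poor ones, with no overlap. Rfx3, a relative that neurons also express, overlapped widely, from 27.0 to 76.9 CPM on the rich side and from 19.9 to 64.8 on the poor side. The master regulators of multiciliated cell formation, Mcidas and Gmnc, did not pass the filter.

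Among the axonemal dyneins, 13 passed the filter, 2 of them only through the ependyma-rich libraries. Of the 13, 4 lay higher without overlap, Dnali1, Dynlrb2, Dnah1 and Dnah2, beside 8.71% of all genes tested. Dynlrb2, a dynein light chain, stood at 2.59, 1.38 and 2.19 CPM against 0.441, 0.378 and 0.62. Heavy chains were less clear: Dnah9, a motor of the outer arm, stood at 6.86, 2.45 and 7.28 CPM against 2.20, 2.83 and 2.21, so NSZR2 fell inside the ependyma-poor range. Dnah5, another outer-arm heavy chain, overlapped from end to end, at 6.93, 2.64 and 7.09 CPM against 3.87, 9.59 and 3.10. Of the 10 factors past the filter that assemble or dock dyneins, 2 lay higher without overlap, Zmynd10 and Ccdc114, beside the same 8.71%.

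Radial spoke and central pair genes had 14 members past the filter, of which 7 lay higher without overlap, beside 8.71% of all genes tested. Ak7, an adenylate kinase of the cilium and the separated member of this group, stood at 7.85, 3.77 and 7.41 CPM against 1.67, 1.32 and 2.07. Ak8, another adenylate kinase of cilia, stood at 1.84, 1.96 and 1.81 CPM against 1.49, 1.18 and 1.27, a narrow distance. Hydin, a protein of the central pair, stood at 3.76, 1.42 and 4.06 CPM against 0.588, 1.06 and 0.931. Cfap54, also of the central pair, went its own way, with its highest level of the 11 libraries in ependyma-poor NSZR6 at 42.5 CPM and 30.9, 9.86 and 17.2 in the ependyma-rich libraries.

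The nexin link and tubule group was the largest, with 33 members past the filter, 8 of them only through the ependyma-rich libraries. Of the 33, 15 lay higher without overlap and 6 were separated, beside 8.71% and 0.519% of all genes tested. Fam216b, a gene of ciliated cells, stood at 3.62, 1.63 and 2.44 CPM against 0, 0.0945 and 0.0345. Lrrc23, a protein of the radial spoke, stood at 4.31, 2.27 and 3.91 CPM against 0.955, 0.425 and 0.655. Drc7, a part of the nexin link complex, stood at 3.74, 2.08 and 2.75 CPM against 0.881, 0.756 and 0.689. The separated genes of this group that remain are Ccdc153, Cfap126 and Iqca. Other cilia genes overlapped, among them Ccdc151, a docking factor, at 6.13, 7.30 and 8.63 CPM against 6.88, 6.52 and 6.89, and Nme5, a radial spoke protein, at 11.9, 9.40 and 9.69 against 13.7, 8.48 and 10.8.

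Within the ependyma-rich libraries, NSZR2 held least of the cilia genes. Of the 74, 56 were lowest in NSZR2, where 37.4% of all genes tested were, and 36 had the order of Foxj1, with NSZR1 highest and NSZR2 lowest, where 14.4% of all genes did. NSZR2 also differed from NSZR1 and NSZR3 in a measure of transcript length given below, and its part in this order was not tested. Among the 5 libraries outside the choice, 29 of the 74 were highest in NSZR14, the library of highest Foxj1 there, against 18.6% of all genes tested. These values did not enter the choice of the 6 libraries. Foxj1 itself is among the 29, and since it singled out NSZR14, its place there was fixed in advance.

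The wall lists also cover genes of ependymal cells that are not parts of cilia and genes of choroid plexus. Of 10 non-ciliary ependyma genes past the filter, 2 lay higher without overlap, Cd24a and Rarres2. Their median log2 deviation from each gene's median over the 11 libraries was 0.26, 0.08 and 0.16 in NSZR1, NSZR2 and NSZR3. It was 0.07, -0.21 and -0.24 in NSZR5, NSZR6 and NSZR7, so NSZR2 and NSZR5 were nearly level. The highest value of the 11 libraries was 0.33, in NSZR12 outside the choice. Vim, an intermediate filament of ependyma and glia, stood at 40.1, 37.3 and 39.4 CPM against 40.0, 25.1 and 24.1, so NSZR5 reached the ependyma-rich level. Of 6 choroid plexus genes past the filter, 2 lay higher without overlap. Beside both lists stands the share over all genes tested, 8.71% higher. Ttr, the transthyretin gene that choroid plexus transcribes at very high level, did not exceed 0.224 CPM in any of the 11 libraries.

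Genes of dividing cells were higher in the same libraries. Of 40 genes on this list, 37 passed the filter, 2 of them only through the ependyma-rich libraries. Of the 37, 26 lay higher without overlap, 0 lay lower and 11 were separated (18 without NSZR5), and all 37 had a difference of medians above 0, with a median of 0.86 on the log2(CPM + 0.5) scale. Over all genes tested, 8.71% lay higher without overlap, 0.519% were separated and the median was 0.01, and nothing is read from the difference. Top2a, the topoisomerase of dividing cells (chr11:98992943-99024189, minus strand), stood at 16.5, 10.2 and 18.3 CPM in NSZR1, NSZR2 and NSZR3 and at 4.87, 2.03 and 3.24 in NSZR5, NSZR6 and NSZR7. Mki67, a coat protein of mitotic chromosomes, stood at 11.5, 10.4 and 21.0 CPM against 4.63, 2.06 and 3.10.

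The separated members covered DNA synthesis, the mitotic kinase and the spindle. Rrm2, which makes deoxyribonucleotides, had the widest space between the sides, at 7.78, 5.94 and 8.38 CPM against 2.28, 1.87 and 1.79. Cdk1, the kinase that starts mitosis, stood at 2.27, 3.22 and 3.03 CPM against 1.03, 0.614 and 0.655. Prc1, which bundles microtubules of the midzone, stood at 4.56, 4.78 and 6.28 CPM against 1.86, 0.921 and 0.689. Foxm1, a transcription factor of mitotic genes, stood at 6.76, 6.66 and 6.47 CPM against 2.84, 1.63 and 2.52. Pcna, the sliding clamp of DNA polymerase, overlapped, at 19.3, 16.6 and 18.0 CPM against 20.8, 15.7 and 15.8.

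Inside the ependyma-rich libraries, 6 of the 37 had the order of Foxj1, beside 36 of the 74 cilia genes and 14.4% of all genes tested. Lowest in NSZR2 were 19 of the 37, beside 37.4% of all genes tested. Outside the choice, NSZR13 held the most of these genes, 28 of 37 being highest there, against 17.0% of all genes tested. Top2a stood at 16.2 CPM in NSZR13, within the ependyma-rich range, while Foxj1 stood at 3.57 and Ccdc153 at 0.0553 in the same library. NSZR14 was the reverse, with Ccdc153 at 2.35 CPM and Top2a at 6.17. As a list, the cilia genes had a median deviation of 0.63 in NSZR1, 0.45 in NSZR3 and 0.10 in NSZR2, on the log2 scale against each gene's median over the 11 libraries, and 0.16 in NSZR14. NSZR2 was thus below NSZR14 in the cilia list, although it was above it in Foxj1. The dividing cell list stood at 0.38 in NSZR2 and 0.00 in NSZR14.

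**Figure D2:**
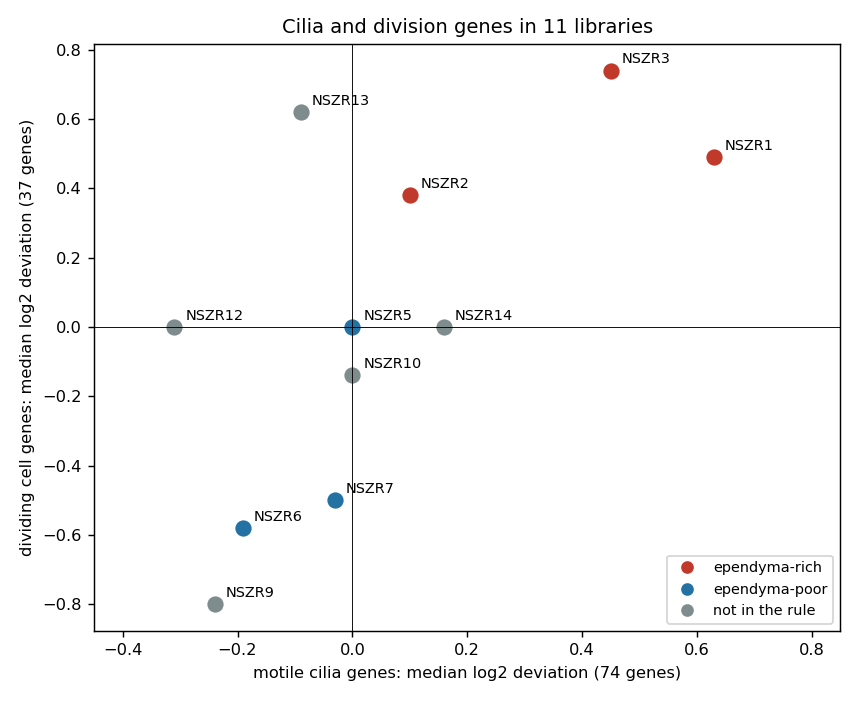
Median log2 deviation of 74 motile cilia genes (horizontal axis) and 37 genes of dividing cells (vertical axis) in each of the 11 libraries, where the deviation is log2(CPM + 0.5) minus the gene's median over the 11 libraries; 1 point a library, coloured by set. NSZR1 (0.63 and 0.49), NSZR3 (0.45 and 0.74) and NSZR2 (0.10 and 0.38) are above 0 on both axes, while NSZR13 is at -0.09 on the first and 0.62 on the second and NSZR14, at 0.16 on the first, lies right of NSZR2.

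Neuroblast genes were in part higher, although the marker Dcx was not. Dcx, a microtubule protein of migrating neuroblasts (chrX:143855842-143933311, minus strand), stood at 80.4, 32.8 and 92.8 CPM in NSZR1, NSZR2 and NSZR3 and at 32.3, 58.0 and 33.5 in NSZR5, NSZR6 and NSZR7. NSZR2 was thus below NSZR6, and the sides overlapped. Of the 25 neuroblast genes, which all passed the filter, 13 lay higher without overlap, 0 lay lower and 3 were separated (5 without NSZR2 or without NSZR5), with a median difference of 0.61, beside 8.71%, 0.519% and 0.01 over all genes tested. Dlx1, a homeobox factor of forebrain GABAergic precursors, stood at 72.0, 74.9 and 85.6 CPM against 41.9, 33.8 and 42.9. Its neighbour Dlx2 stood at 25.3, 23.4 and 32.5 CPM against 14.8, 13.7 and 14.2. Cd24a, a surface protein of both neuroblasts and ependyma, stood at 31.7, 32.1 and 45.3 CPM against 16, 20.7 and 17.7.

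The list also holds members that overlapped, among them Stmn1 and Tubb3, microtubule genes that mature neurons express too. Stmn1 stood at 318, 480 and 417 CPM against 604, 455 and 542, and Tubb3 at 339, 489 and 363 against 526, 405 and 419. Outside the choice, 14 of the 25 were highest in NSZR13, beside 17.0% of all genes tested. Another 9 were highest in NSZR12, beside 4120 of the 14842 genes tested. Dcx stood at 75.2 CPM in NSZR13, close to NSZR1, and at 27.7 to 34.3 in the other 4 libraries outside the choice.

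Of 17 stem cell and progenitor genes past the filter, 10 lay higher without overlap, 0 lay lower and 0 were separated (3 without NSZR2 or without NSZR5), beside 8.71% higher, 7.45% lower and 0.519% separated over all genes tested. Sox9, a factor of stem cells and astrocytes, stood at 24.5, 25.4 and 22.4 CPM against 16.2, 15.9 and 18.0. Egfr, the receptor of activated stem cells, overlapped at 13.5, 9.90 and 15.3 CPM against 7.57, 10.8 and 6.69, and so did Hes5, a Notch target.

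**Figure D3:**
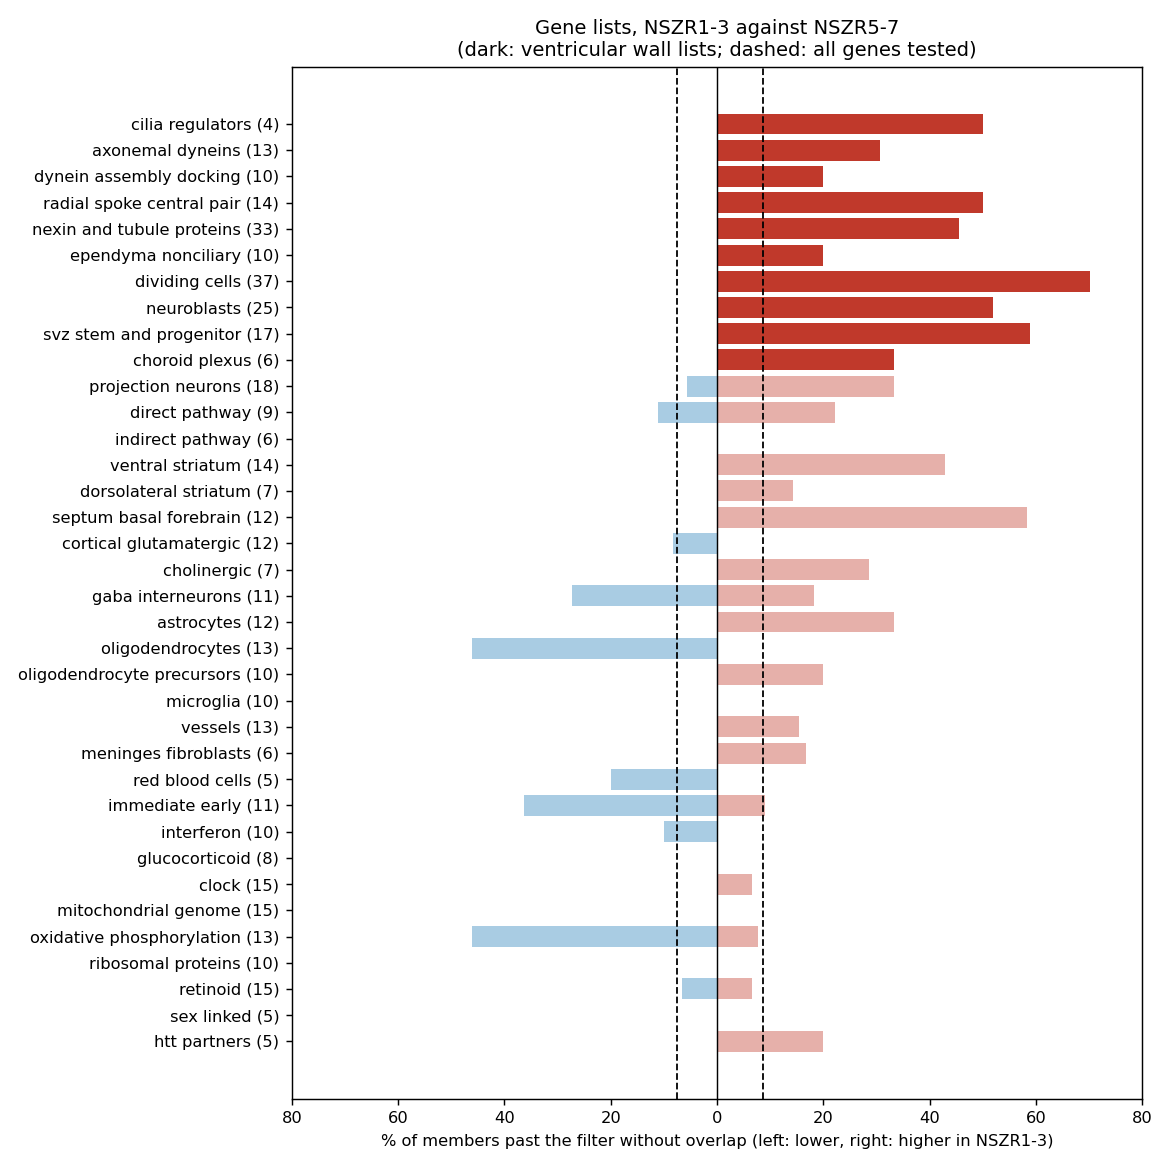
Share of the members past the filter that lay wholly higher (right) or wholly lower (left) in NSZR1, NSZR2 and NSZR3 than in NSZR5, NSZR6 and NSZR7, by gene list, with the number of members in brackets; the dashed lines mark all genes tested (8.71% higher, 7.45% lower). The 10 dark bars of the ventricular wall lists reach to the right only, while oligodendrocyte and oxidative phosphorylation genes reach to the left, with 6 of 13 each.

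Genes on the ventricular wall lists were the smaller share of what stood apart. The lists do not hold every gene of the wall, so a gene outside them can still belong to it. The 10 wall lists together had 168 genes past the filter, 1.13% of those tested. They held 24 of the 77 separated genes that were higher (31.2%) and 82 of the 1293 without overlap (6.34%), and none of the 1106 that were lower. Foxj1, which chose the sides, is among the 24, and the choice fixed the direction of the cilia list. On the wall lists, 10 cilia and 2 dividing cell genes passed the filter only through the ependyma-rich libraries. Nothing is read from these shares. The remaining 53 separated genes lay outside the wall lists, 3 of them in the lists of other cell types and functions, which had 269 genes past the filter. Pclaf, a partner of the DNA polymerase clamp, stood at 4.19, 3.61 and 7.47 CPM against 1.93, 0.945 and 0.517. Tk1, a thymidine kinase, stood at 1.60, 1.11 and 2.47 CPM against 0.196, 0.472 and 0.0345. It passed the filter only through the ependyma-rich libraries and so had to differ.

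Other separated genes outside the wall lists were not assigned to a cell type here. Tuba1c, an alpha-tubulin gene (chr15:99029891-99038110, plus strand), had the widest space between the sides of the protein-coding genes outside the wall lists, at 8.18, 10.8 and 8.28 CPM against 0.0979, 0.52 and 0.414. Among the libraries outside the choice it reached 12.6 CPM in NSZR10 and 3.10 in NSZR12 and stayed at or below 0.968 in the others, an order unlike that of Foxj1. Col8a2, a short-chain collagen, stood at 3.54, 1.28 and 2.88 CPM against 0.245, 0.0473 and 0.138. Cdhr4, a cadherin-related gene, stood at 1.70, 1.13 and 2.81 CPM against 0.196, 0.0473 and 0, and was highest outside the choice in NSZR14 at 1.16. Tuba1c, Col8a2 and Cdhr4 passed the filter only through the ependyma-rich libraries and so had to differ between the sides.

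The separated genes of the other lists were markers of neurons and brain regions. Dlk1, a paternally expressed gene on the list of ventral striatum (chr12:109452823-109463336, plus strand), stood at 116, 109 and 114 CPM in the ependyma-rich libraries and at 39.9, 37.3 and 62.4 in the ependyma-poor ones. In the libraries outside the choice Dlk1 stood at 95.7, 130, 102, 38.1 and 117 CPM in NSZR9, NSZR10, NSZR12, NSZR13 and NSZR14, so 4 of them were near the ependyma-rich level with Foxj1 below 8 CPM. Rtl1, an imprinted gene of the same region, stood at 3.22, 3.75 and 3.16 CPM against 1.52, 1.37 and 1.55. Ebf1, a factor of direct pathway neurons, stood at 7.95, 7.67 and 8.72 CPM against 2.42, 3.66 and 3.90. Prdm16, on the septum and basal forebrain list and also known in ependyma and stem cells, stood at 15.6, 15 and 17.5 CPM against 8.40, 8.24 and 8.96.

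Lists of brain regions had smaller differences, with a median of 0.31 for ventral striatum and 0.23 for septum and basal forebrain. Over all genes tested, the median was 0.01, 8.71% lay higher without overlap and 7.45% lay lower. Of 14 ventral striatum genes, 6 lay higher without overlap and 0 lower, among them Calcr, the calcitonin receptor, at 10.3, 2.66 and 4.56 CPM against 0.367, 1.94 and 2.14. Of 12 septum and basal forebrain genes, 7 lay higher and 0 lower, and 4 of the 7 were Zic genes. Zic1 stood at 49.7, 33.9 and 56.5 CPM against 20.7, 33.1 and 20.1. Of 12 astrocyte genes, 4 lay higher and 0 lower, among them Slc1a3, a glutamate transporter, at 504, 458 and 522 CPM against 376, 400 and 360.

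Of 18 projection neuron genes, 6 lay higher without overlap and 1 lower, beside 8.71% and 7.45% of all genes tested. Their median difference was 0.14, with 14 genes above 0 and 4 below. Ppp1r1b, the DARPP-32 gene of these neurons, stood at 492, 606 and 475 CPM against 578, 438 and 646. Penk, the enkephalin precursor of indirect pathway neurons, stood at 322, 368 and 313 CPM against 372, 301 and 410. All 6 libraries were below the 5 outside the choice in Penk, which ran there from 807 CPM in NSZR9 to its highest value in NSZR12. This is also the division by library code.

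Of the 269 genes of the lists outside the wall, 25 lay lower in the ependyma-rich libraries without overlap, beside 7.45% of all genes tested, and 0 were separated lower. Of the same 269, 38 lay higher, beside 8.71% of all genes. Of 13 oligodendrocyte genes, 6 lay lower without overlap, 0 higher and 0 were separated, with a median difference of -0.31. Mobp, a myelin protein, stood at 285, 300 and 286 CPM against 499, 327 and 410. Of 13 nuclear genes of oxidative phosphorylation, 6 lay lower and 1 higher, with a median difference of -0.49. Cox6a1, a subunit of cytochrome c oxidase, stood at 165, 235 and 188 CPM against 434, 237 and 283, so NSZR2 and NSZR6 were nearly level. The 15 genes of the mitochondrial genome had none without overlap in either direction.

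Immediate early genes, which neuronal activity induces, had 4 of 11 lower without overlap and 1 higher, beside 7.45% lower and 8.71% higher over all genes tested. Npas4 stood at 11.7, 6.52 and 9.56 CPM against 14.7, 17.6 and 11.8. Among the GABAergic interneuron genes, 3 of 11 lay lower and 2 higher, beside the same shares over all genes. Pvalb, the parvalbumin gene of fast-spiking interneurons, stood at 10.2, 10.3 and 9.78 CPM against 25.8, 13.1 and 22.9, and Npy, the neuropeptide Y gene, at 48.9, 53.6 and 48.6 against 81.3, 61.2 and 68.0.

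The genes at the centre of the study did not divide the sides. Rarb, the retinoic acid receptor (chr14:16430839-16819156, minus strand), stood at 79.0, 64.7 and 80.4 CPM against 49.8, 63.0 and 65.6, so NSZR2 lay within the ependyma-poor range. Htt, the huntingtin gene, ran from 139 to 166 CPM in the ependyma-rich libraries, and ependyma-poor NSZR6 reached 165. Of 15 retinoid genes past the filter, 1 lay higher, Crabp1, and 1 lower, Aldh1a1. These counts are near the shares over all genes tested, 8.71% higher and 7.45% lower, and nothing is read from them. Aldh1a1, an enzyme that makes retinoic acid, stood at 11.3, 14.8 and 12.5 CPM against 20.2, 23.1 and 25.1, and the libraries outside the choice ran from 19.9 to 37.1, all above the ependyma-rich values.

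**Figure D4:**
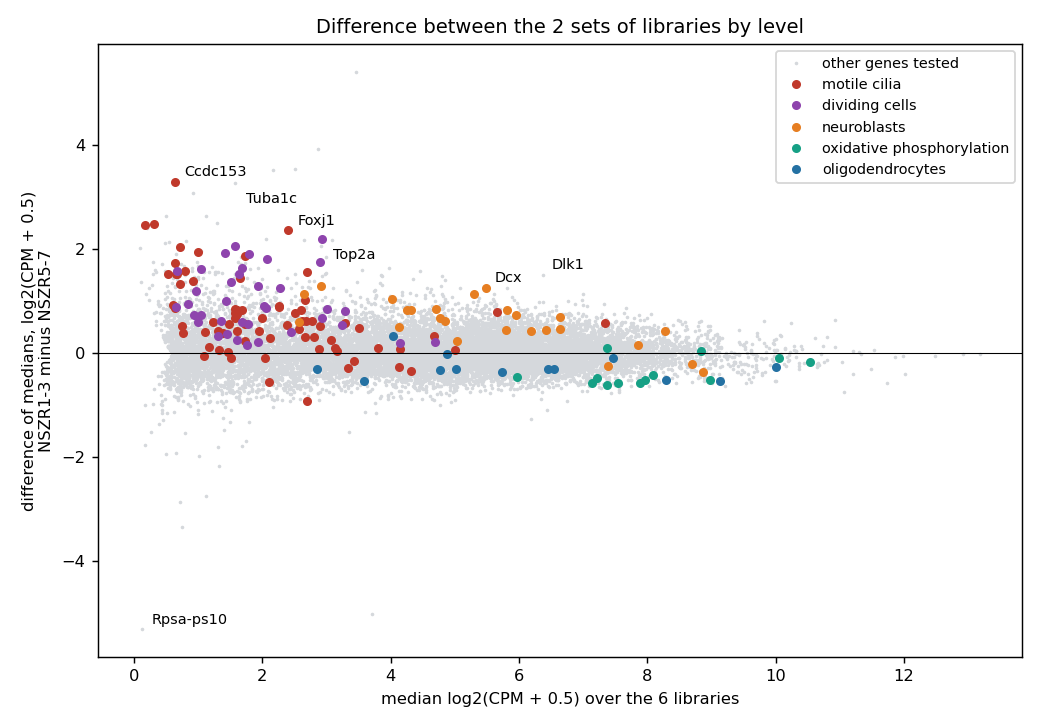
Difference of the side medians on the log2(CPM + 0.5) scale, NSZR1 to NSZR3 minus NSZR5 to NSZR7 (vertical axis), against the median level over the 6 libraries (horizontal axis) for the 14842 genes tested, 1 point a gene, with 5 gene groups in colour. Cilia and division genes lie at low levels and mostly above 0 (medians 0.56 and 0.86), while most oxidative phosphorylation and oligodendrocyte genes lie at high levels below 0 (medians -0.49 and -0.31).

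Genes of different transcript length differed in how often they stood apart. For each library, the median log2 deviation of the 10% of genes with the shortest exons was subtracted from that of the longest 10%. The measure was 0.43 in NSZR1, -0.10 in NSZR2 and 0.39 in NSZR3 and -0.44, 0.24 and -0.23 in NSZR5, NSZR6 and NSZR7, so the sides overlapped in it. Of the shortest 10% of genes, 2.83% lay higher and 18.3% lower in the ependyma-rich libraries, and of the longest 10%, 12.0% lay higher and 1.62% lower. Among the 13 oxidative phosphorylation genes, 5 were in the shortest decile, as were 16 of the 74 cilia genes and 1 of the 37 genes of dividing cells. When each gene was centred on genes of its own length decile, 79 genes were separated higher and 5 lower, including 11 cilia genes and 12 genes of dividing cells. Beyond this recentring, the part of length in single genes was not tested.

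**Figure D5:**
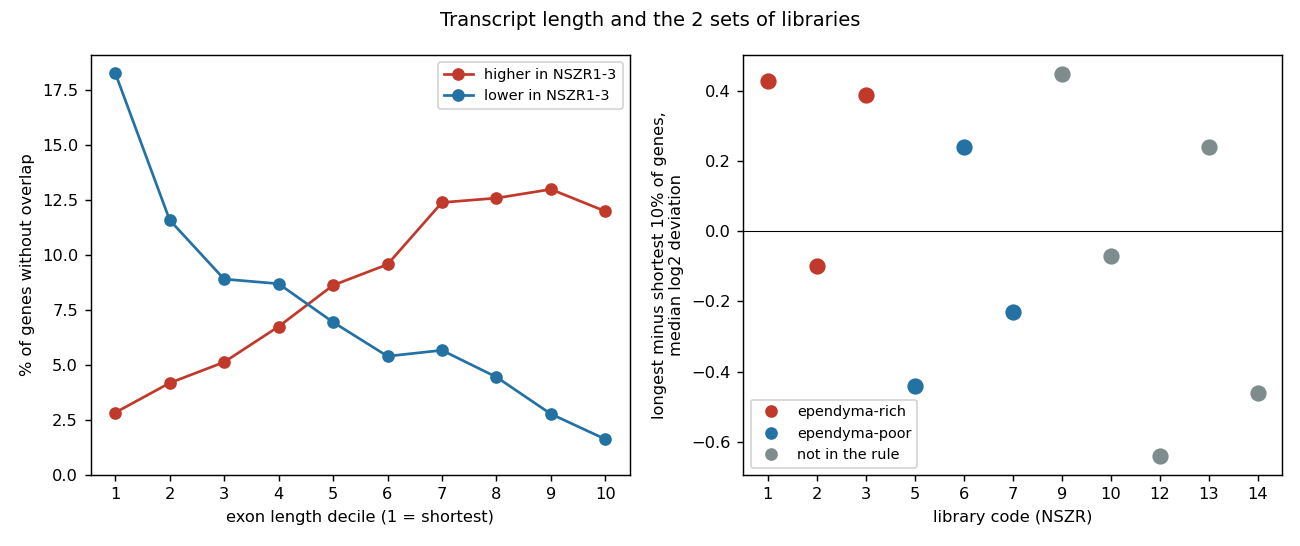
Left, percent of genes that lay wholly higher or wholly lower in NSZR1, NSZR2 and NSZR3 than in NSZR5, NSZR6 and NSZR7, by decile of exon length; right, difference in median log2 deviation between the longest and shortest 10% of genes in each of the 11 libraries, coloured by set. The percent lower goes from 18.3 in the shortest decile to 1.62 in the longest, and NSZR2 (-0.10) stands apart from NSZR1 (0.43) and NSZR3 (0.39).

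The protocadherin gamma cluster supplied 6 of the 77 separated genes, and 19 of its 22 members past the filter lay higher without overlap. Over all genes tested, 0.519% were separated higher and 8.71% lay higher without overlap. The genes of this cluster encode cell adhesion proteins of neurons. Pcdhgb7 stood at 7.35, 7.77 and 6.97 CPM against 3.45, 2.81 and 0.896, and Pcdhga6 at 8.63, 9.90 and 7.19 against 3.08, 3.85 and 1.17. They share their last exons and overlap in the annotation, so their counts are uncertain and they are not separate observations. Outside the choice, NSZR9 reached 8.29 CPM of Pcdhga6, within the ependyma-rich range.

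The 8 separated genes that were lower comprised 5 protein-coding genes and 3 pseudogenes. The widest space among them was that of the pseudogene Rpsa-ps10, at 0.174, 0.0825 and 0.156 CPM against 33.4, 25.4 and 1.28. It passed the filter only through the ependyma-poor libraries and so had to differ. Outside the choice, Rpsa-ps10 was as low in NSZR10 (0.0904 CPM) and NSZR14 (0.0658). It stood at 25.1 in NSZR9, 55.5 in NSZR12 and 28.8 in NSZR13. Among the protein-coding ones, 4930452B06Rik stood at 9.40, 9.65 and 9.44 CPM against 17.6, 15.8 and 16, and it ran from 12.4 to 20.6 in the libraries outside the choice. Cd209c, a C-type lectin gene, stood at 1.87, 0.928 and 1.72 CPM against 3.75, 3.64 and 5.96. Counts of pseudogenes are uncertain because reads can be shared with the parent gene. The Y-linked gene Ddx3y, at 70.3, 21.4 and 72.3 CPM against 31.5, 66.2 and 36.9, did not divide the sides.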

How the data were processed

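The authors deposited 1 table of unnormalized gene counts. The tools named for mm10 are HTSeq 0.6.1, Bowtie2 2.1.0, TopHat2 2.0.14 and bcl2fastq 2.17.1.14, per the submitters' processing notes. Strand setting and annotation release: not given in the sources used here. Antisense, overlapping and near-identical genes are therefore uncertain. Of 52550 identifiers, 52403 matched GENCODE M21 (GRCm38.p6), the source of names, gene coordinates and exon lengths. CPM were computed from the counts with edgeR 4.0.16 (R 4.3.3) trimmed-mean factors over the 11 libraries (0.908 to 1.06); DESeq2 1.42.0 gave alternative size factors. Python 3.11.15, numpy 2.4.6, pandas 2.3.3 and matplotlib 3.10.9 did the rest.

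The labels give no groups, and the sides were chosen by Foxj1, so values are described per library and no test was run. The members and the 36 gene lists were chosen with earlier results of these data known. Named genes were the 5 markers, Rarb and Htt, the widest-separated, most abundant and least different members of the wall lists, the most abundant, separated and most different members of the other lists, and 25 further protein-coding genes in each direction. Other genes named were chosen after their values were seen. No labelled batch was found. Counting of separated genes was tested on simulated data. Alternatives were other library sizes, filters, pseudocounts and folds, all 8 libraries below 8 CPM as the poor side, each library left out, and, chosen after seeing the data, centring on length deciles.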

Additional observations from a re-analysis of the deposited data

How the results depend on the processing

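The sides hold 3 libraries each, chosen by a measured value, so the counts describe these animals and carry no error of a group. Depth limits genes near 3 counts, such as Ccdc153 in the ependyma-poor libraries. Of the alternatives that change a count without leaving out a library, 87 stayed within 1.5 times of the reported count and 21 did not. With no minimum fold, 1293 genes lay higher and 1106 lower, including 30 cilia, 26 dividing cell, 13 neuroblast and 10 stem cell genes and, from the lists outside the wall, 38 higher and 25 lower. With a fold of 2, 19 genes were higher and 2 lower, including 3 cilia, 5 dividing cell, 0 neuroblast and 0 genes of the lists outside the wall. With all 8 libraries below 8 CPM of Foxj1 as the poor side, 5 were higher and 1 lower, including 1 cilia gene and 0 from the dividing cell, neuroblast and other lists; the gap of Top2a, the log2 distance from the lowest rich to the highest poor library, turned from 1.00 to -0.64, set by NSZR13. Centring on length deciles left 5 lower genes. Each library was also left out. Counts then ran from 86 to 170 higher and 14 to 56 lower overall. They ran from 10 to 21 for cilia, 11 to 18 for dividing cell, 3 to 5 for neuroblast and 0 to 3 for stem cell genes, and from 3 to 6 higher and 0 to 3 lower for the lists outside the wall. Fewer libraries a side make separation easier by construction. Without NSZR2, 170 were higher, 31 lower and 21 cilia genes were separated; without NSZR5, 137 were higher and 18 lower; without NSZR6, 126 and 56; without NSZR1, 17 were lower; without NSZR3, 17; without NSZR7, 14. No paired analysis was possible because the labels give no groups and no replicate numbers.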

Other observations

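Of the 77 genes separated higher, 5 also stood above all 8 libraries below 8 CPM of Foxj1 by the same fold, and 3 of these are processed pseudogenes. Gm6682 stood at 5.01, 6.17 and 5.41 CPM in NSZR1, NSZR2 and NSZR3 and between 0.165 and 0.588 in the 8 others. Gm7172 stood at 3.52, 5.71 and 3.97 CPM and did not exceed 2.00 elsewhere, and Gm5620 reached 4.19 in NSZR1 and did not exceed 2.48 in the 8 others. Both Gm6682 and Gm7172 lie on chromosome 12. The protein-coding members are Fam216b, a gene of ciliated cells, and AW551984. AW551984 stood at 61.4, 36.9 and 38.5 CPM against 21.8, 19.1 and 19.3, and between 8.43 and 18.9 in the libraries outside the choice. Gm5148 was the gene separated lower against all 8, at 0.199, 0.227 and 1.13 CPM in the ependyma-rich libraries and from 2.45 to 4.46 in the others. These genes were singled out after their values were seen. Gm6682 and Fam216b also passed the filter only through the ependyma-rich libraries and so had to differ between the sides.

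The cerebral cortex and microglia lists had few members apart between the sides. Over all genes tested, 8.71% lay higher without overlap and 7.45% lower. In lists this short, few members apart say nothing about these cells. Of 12 cortical glutamatergic genes, 1 lay lower without overlap and 0 higher, and their median difference was -0.01 on the log2(CPM + 0.5) scale. Of 10 microglia genes, 0 lay apart in either direction, with a median difference of -0.02. The 10 ribosomal protein genes also had 0 without overlap, with a median difference of -0.25.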
